A study of Mus musculus with 18 samples.

Results

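Decorin (Dcn), biglycan (Bgn), lumican (Lum), fibromodulin (Fmod), thrombospondin 1 and 2 (Thbs1, Thbs2), Sparc, periostin (Postn), fibronectin (Fn1) and versican (Vcan) are non-collagen proteins of the tumor stroma's extracellular matrix. These 10 genes were chosen by name, with earlier results of these data known, so the shares of all genes beside their counts are no test of the set. Each was found under its symbol among the 23284 genes of the deposited tables. They are described here in tumors of 3 mouse cancer lines, GL261 (glioma), LLC (Lewis lung carcinoma) and B16F10 (melanoma), grown under the skin of the flank of male mice and treated with cyclophosphamide (CPA), a DNA-alkylating drug that is activated in the liver. Across the 3 models grown in immunocompetent mice CPA raised 9 of the 10 genes in GL261 tumors (17.6% of all genes tested), 5 of the 9 that could be tested in LLC tumors (2.01% of all genes) and 6 of 10 in B16F10 tumors (6.5% of all genes), and none was called lower.

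Messenger RNA was sequenced from 18 tumor pools in 9 groups of 2 pools each. In C57BL/6 hosts (strain label C57BL/BNTac) the groups were GL261(B6) CPA/6d (pools of 9 and 10 tumors) and GL261(B6) untreated (9 and 10), LLC CPA/6d and LLC untreated (5 tumors in each pool), and B16F10 CPA/6d (4 and 3) and B16F10 untreated (5 and 5). In ICR scid hosts, which lack functional B and T lymphocytes, the groups were GL261(scid) untreated (6 tumors in each pool), GL261(scid) CPA/6d (9 in each) and GL261(scid) CPA/9d (12 in each). CPA was given intraperitoneally at 140 mg/kg (the LLC and B16F10 group headings give 150 mg/kg), with 6 or 9 days between injections, and tumors were taken 6 days after the last injection. GL261 tumors received 2 injections and LLC and B16F10 tumors 3. So the tumor model cannot be told apart from the number of injections, the time on treatment or the dose in the headings. All mice are labelled as 12 weeks old. The scid libraries were made with another kit, without strand information per their labels, so host and kit cannot be told apart, and levels are compared only among the libraries of the B6 hosts or among those of the scid hosts.

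The stromal matrix is built largely by fibroblasts and related mesenchymal cells, and macrophages, endothelial cells and tumor cells add to it. Small leucine-rich proteoglycans (Dcn, Bgn, Lum, Fmod) bind collagen fibrils and set their spacing and width, and Dcn and Bgn also bind TGF-β. Thbs1, Thbs2, Sparc and Postn are matricellular proteins, which sit in the matrix and modulate cell adhesion and signaling more than they give it strength. Both thrombospondins act through CD36 and CD47 and inhibit angiogenesis, Fn1 is an adhesive scaffold bound by integrins, and Vcan is a large chondroitin sulfate proteoglycan that binds hyaluronan. In bulk tumor RNA, more cells of a type and more RNA per cell cannot be told apart.

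On build mm9 the genes lie at chr10:96942245-96980777 (+ strand) for Dcn, chrX:70728941-70741272 (+ strand) for Bgn, chr10:97028135-97035337 (+ strand) for Lum, chr1:135933831-135944854 (+ strand) for Fmod and chr3:54165031-54194961 (+ strand) for Postn. Thbs1 lies at chr2:117937612-117952869 (+ strand), Thbs2 at chr17:14802507-14831269 (- strand), Sparc at chr11:55208002-55233582 (- strand), Fn1 at chr1:71632094-71699774 (- strand) and Vcan at chr13:89794915-89882117 (- strand). Dcn and Lum are neighbors on the same strand, 47.4 kb apart, and Fn1 shares 292 exon bases with Apol7d on the opposite strand, so reads there could be told apart only in the strand-specific libraries. The promoter windows of 4 of the 10 genes are printed here for how those genes behaved: Bgn, Postn and Sparc are genes whose response to CPA differed between GL261(B6) and LLC tumors, and Thbs2 rose in all 3 models of the B6 hosts. Each window spans 250 bases before to 50 after the transcription start, 5′ to 3′ on the gene's strand, from RefSeq on GRCm38.p6, with a TATA box match in capitals where there is one. The windows are chrX:73483351-73483650 (+ strand) for Bgn, chr3:54360857-54361156 (+ strand) for Postn, chr11:55420031-55420330 (- strand) for Sparc and chr17:14694213-14694512 (- strand) for Thbs2.
Bgn: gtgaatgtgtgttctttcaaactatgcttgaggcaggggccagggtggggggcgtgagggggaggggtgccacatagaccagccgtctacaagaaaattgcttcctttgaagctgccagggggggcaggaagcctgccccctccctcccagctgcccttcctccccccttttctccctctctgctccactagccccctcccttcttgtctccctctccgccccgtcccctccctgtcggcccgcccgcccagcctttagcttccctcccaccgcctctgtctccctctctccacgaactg
Postn: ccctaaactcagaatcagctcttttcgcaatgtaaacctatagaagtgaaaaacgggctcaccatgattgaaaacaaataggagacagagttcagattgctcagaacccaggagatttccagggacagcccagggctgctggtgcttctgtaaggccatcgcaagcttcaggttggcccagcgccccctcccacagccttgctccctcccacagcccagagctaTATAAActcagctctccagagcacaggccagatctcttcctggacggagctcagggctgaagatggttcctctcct
Sparc: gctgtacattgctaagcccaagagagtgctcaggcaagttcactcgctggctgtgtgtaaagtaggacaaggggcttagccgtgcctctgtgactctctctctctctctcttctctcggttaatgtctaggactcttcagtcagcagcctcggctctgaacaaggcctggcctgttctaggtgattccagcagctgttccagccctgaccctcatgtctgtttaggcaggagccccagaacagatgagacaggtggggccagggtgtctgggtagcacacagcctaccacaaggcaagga
Thbs2: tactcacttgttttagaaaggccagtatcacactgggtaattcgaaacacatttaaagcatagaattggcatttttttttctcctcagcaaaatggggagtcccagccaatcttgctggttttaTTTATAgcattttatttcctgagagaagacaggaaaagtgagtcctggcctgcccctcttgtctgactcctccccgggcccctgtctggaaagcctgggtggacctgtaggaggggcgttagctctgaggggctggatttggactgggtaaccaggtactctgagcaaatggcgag

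Among the 7 windows held for 6 of the genes (Bgn, Fmod, Postn with 2 starts, Thbs2, Sparc, Vcan), the letters TATAAA were found on either strand in 2. They stand 26 bases before the start in the Postn window above and, on the opposite strand (printed as TTTATA), 126 bases before the start in the Thbs2 window. The same letters are in 13.6% of 32851 mouse promoter windows of that length. A search on both strands for TGANTCA (an AP-1 motif, in 7.81% of all windows), CATTCC (a TEAD motif, 14.7%) and TTCNNNGAA (a STAT motif, 8.3%) found none in the 7 windows, which says only that these letters are not there, and no searched motif overlapped another.

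The libraries held between 6169217 and 15979644 reads assigned to genes. The tables give group means, from which the whole reads of each pool were solved for every gene with reads, so values below are given for single pools, the pool with more reads first. They are normalized reads, scaled to a common depth of 10355665 reads and not divided by gene length. Which labelled pool each one is cannot be told, and with 2 pools a group every SD, SE and p rests on the spread between pools of tumors. The SD is that of the gene's own 2 pools, while SE and p also draw on the spread of other genes of a like level. Marker levels went with the labelled tumor type for B16F10 and GL261: summed melanocyte markers (Pmel, Tyr, Mlana, Dct, Tyrp1) stood at 211725 to 232848 normalized reads in untreated B16F10 tumors and at most 298 in any group of the other models, and summed glial markers (Olig1, Olig2, Sox10, Omg) at 16461 to 16486 in untreated GL261(B6) tumors, against 3.53 to 10.3 in untreated LLC tumors. Untreated B16F10 tumors also held 5412 to 5799 of the glial sum, though only 2 of its 4 genes could be tested in the B16F10 response. In untreated tumors of B6 hosts the epithelial sum (Krt8, Krt18, Krt19, Epcam, Cdh1) was 5100 to 5539 in LLC, 1553 to 2104 in GL261(B6) and 30.2 to 52.0 in B16F10 tumors. It was 13561 to 14433 in untreated GL261(scid) tumors, a level from the other kit that is not compared with these.

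Together the 10 genes took 1.03% and 1.03% of the library's reads in the GL261(B6) CPA/6d pools, against 0.324% and 0.353% in untreated pools. In LLC tumors they took 0.71% and 0.665% after CPA/6d and 0.366% and 0.349% untreated, and in B16F10 tumors 0.301% and 0.316% after CPA/6d and 0.14% and 0.13% untreated. The share in GL261(scid) tumors was 0.501% and 0.544% untreated, 2.1% and 1.95% on CPA/6d, and 2.13% and 2.22% on CPA/9d. The share was higher after CPA in every pool of every model, and the sum is dominated by the most read genes, Sparc, Fn1 and Postn in GL261 tumors, Fn1 in LLC tumors and Sparc and Fn1 in B16F10 tumors.

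**Figure D1:**
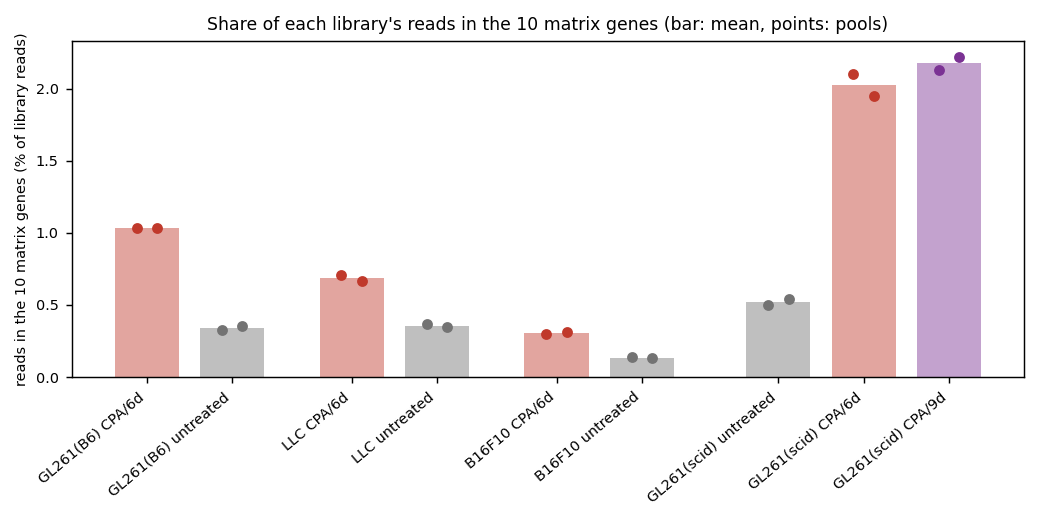
Share of each library's reads, in percent (y axis), that fell on the 10 matrix genes in the 9 groups (x axis), with bars for group means and points for the 2 pools. The CPA pools lie above the untreated pools in all models, from 0.301% against 0.14% in B16F10 tumors up to 2.22% against 0.544% in GL261(scid) tumors.

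The question of the main comparison is how the matrix genes responded to CPA in each tumor model. A gene was called when its fold change exceeded 2 at an unadjusted p under 0.001 in the limma test across all genes. The p-values below are adjusted over all genes tested in the comparison. Treated and untreated pools did not overlap for 85.7% of all genes tested in GL261(B6), 66% in LLC and 74.5% in B16F10 tumors. For GL261(scid) tumors the shares were 88.7% on CPA/6d and 89.4% on CPA/9d. So pools being apart was common to most genes tested. In GL261(B6) tumors 9 of 10 genes were called higher, beside 17.6% of 13701 genes tested, and 0 lower, beside 6.49%. Their median log2 fold change was 1.84, beside -0.024 over all genes tested, and Lum (2.97) and Dcn (2.86) had the largest. Vcan was the gene not called, and Thbs1 (1.00) and Sparc (1.04) sat close to the 2-fold limit.

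In LLC tumors 5 of 9 genes tested were called higher, namely Dcn, Lum, Thbs1, Thbs2 and Vcan, beside 2.01% of 12579 genes tested, and 0 lower, beside 0.954%. The median of the 9 was 1.02, beside -0.012 over all genes. Bgn, Postn and Sparc were not higher, with log2 fold changes of -0.23, -0.29 and -0.61, and Sparc was the only one of the 10 genes with a lower value at an unadjusted p under 0.05 in any of the 5 responses to CPA. Fmod had too few reads to be tested.

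In B16F10 tumors 6 of 10 genes were called higher, namely Bgn, Fmod, Thbs1, Thbs2, Sparc and Fn1, beside 6.5% of 12515 genes tested, and 0 lower, beside 2.83%. The median of the 10 was 1.10, beside 0.027 over all genes. Dcn (0.99) and Lum (0.95), with the largest changes in GL261(B6) tumors, lay just under the 2-fold limit here, and Postn stood at 0.53.

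In GL261(scid) tumors all 10 genes were called higher on CPA/6d, beside 18.9% of 14824 genes tested, with 0 lower, beside 8.14%, and a median of 1.91 (-0.0090 over all genes). On CPA/9d 8 of 10 were called higher, all but Thbs1 (0.99) and Vcan (0.70), beside 20.4% of 14808 genes tested, with 0 lower, beside 10.7%, and a median of 2.04 (-0.016 over all genes). The 2 schedules share the untreated pools. In the responses, limma's voom weighting made the same numbers of calls, 9, 5, 6, 10 and 8 higher and 0 lower, and at an unadjusted p under 0.05 the numbers lower were 0 in every model but LLC, where it was 1.

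**Figure D2:**
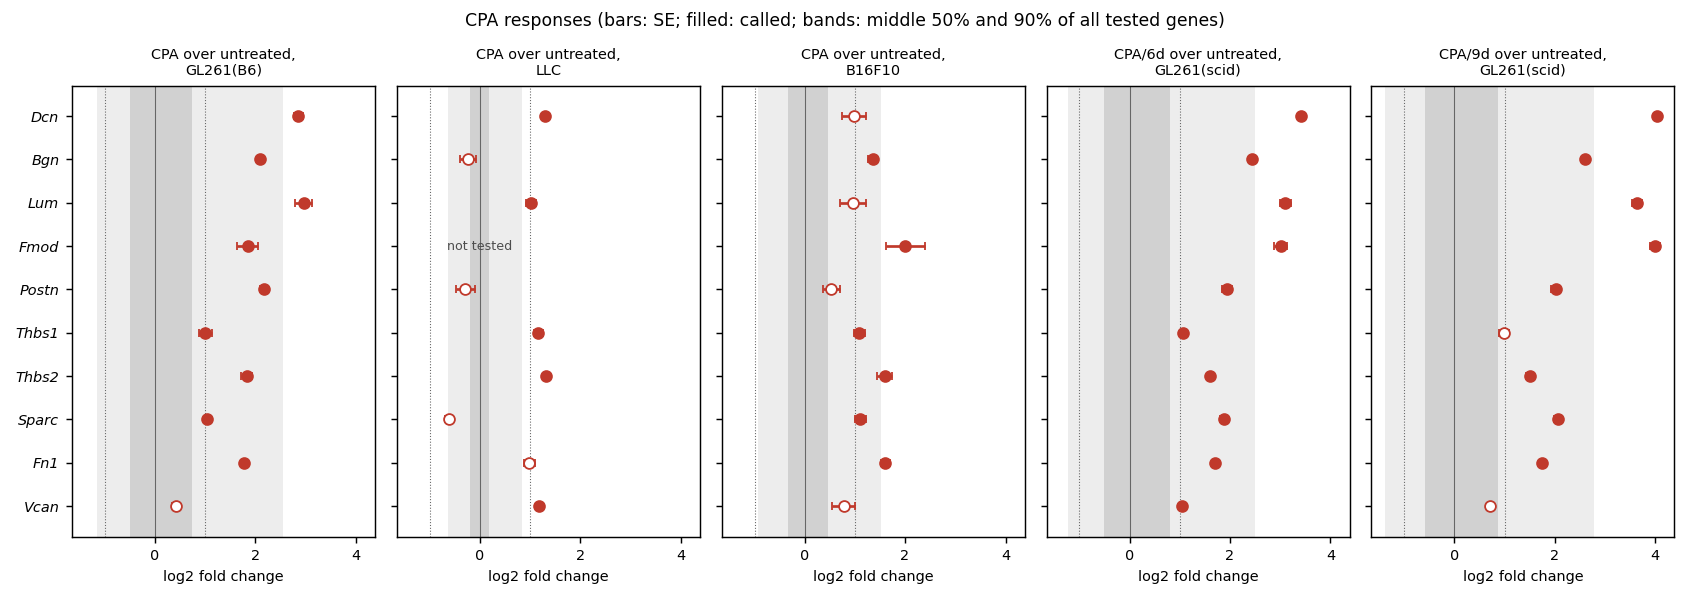
Log2 fold change (x axis) of each of the 10 genes (y axis) after CPA against untreated in GL261(B6), LLC, B16F10 and GL261(scid) tumors (CPA/6d and CPA/9d), with bars for the SE, filled points for called genes and grey bands for the middle 50% and 90% of all genes tested. Dcn and Lum lie furthest right in the GL261(B6) panel (2.86 and 2.97), while Bgn, Postn and Sparc lie left of 0 in LLC tumors.

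Dcn encodes decorin, the small leucine-rich proteoglycan that binds collagen fibrils and TGF-β. Dcn had 3619 and 3944 normalized reads in the GL261(B6) CPA/6d pools, against 562 and 482 in untreated pools, a log2 fold change of 2.86 ± 0.0835 (SE, adjusted p = 5.67e-11). It had 2663 and 2452 in the LLC CPA/6d pools, against 990 and 1081 in untreated pools (1.30 ± 0.0668, adjusted p = 2.19e-06). So Dcn was the lower in untreated GL261(B6) tumors but the higher after CPA, and in neither model did treated and untreated pools overlap. In B16F10 tumors it had 400 and 558 after CPA/6d, against 304 and 186 untreated, pools apart, with a change of 0.99 ± 0.238 (adjusted p = 0.00996) just under the fold limit. That change passed the call without the untreated pool with more reads (1.34) or the CPA/6d pool with more reads (1.23). The GL261(scid) pools had 690 and 725 untreated, 8262 and 6972 on CPA/6d (3.42 ± 0.0721, adjusted p = 4.80e-10) and 10781 and 12537 on CPA/9d (4.04 ± 0.0697, adjusted p = 6.07e-11), a 16.4-fold rise that was the largest of the 10 genes in any response to CPA.

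Lum, the neighbor of Dcn and a keratan sulfate proteoglycan of collagen fibrils, had a lower level per kb of exon than Dcn in every group but a similar course. It had 796 and 789 normalized reads in the GL261(B6) CPA/6d pools, against 125 and 80.8 in untreated pools (2.97 ± 0.167, adjusted p = 1.24e-08). In LLC tumors it had 569 and 596 after CPA/6d, against 258 and 317 untreated (1.02 ± 0.103, adjusted p = 0.000126). That LLC rise sat at the 2-fold limit and was not called when the untreated pool with more reads (0.87) or the CPA/6d pool with fewer reads (0.99) was left out. In B16F10 tumors the gene was scarce, with 74.6 and 70.8 after CPA/6d, against 41.4 and 33.1 untreated (0.95 ± 0.259, adjusted p = 0.0171, not called). GL261(scid) tumors had 362 and 437 untreated, 3849 and 3037 on CPA/6d (3.10 ± 0.111, adjusted p = 7.58e-09) and 4592 and 5354 on CPA/9d (3.63 ± 0.0931, adjusted p = 3.18e-10).

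Bgn encodes biglycan, the close relative of decorin, which also signals through Toll-like receptors once released from the matrix. It had 10500 and 11470 normalized reads in the GL261(B6) CPA/6d pools, against 2418 and 2721 in untreated pools (2.10 ± 0.0721, adjusted p = 1.75e-10). In B16F10 tumors it had 2617 and 2830 after CPA/6d, against 1058 and 1070 untreated (1.35 ± 0.0912, adjusted p = 2.61e-05). In both models all treated pools stood above all untreated ones. LLC tumors, with 226 and 336 after CPA/6d and 337 and 311 untreated, showed overlapping pools and no called change (-0.23 ± 0.156, adjusted p = 0.297). For GL261(scid) tumors the values were 4326 and 4438 untreated, 24644 and 23127 on CPA/6d (2.45 ± 0.0469, adjusted p = 3.91e-10) and 26178 and 26873 on CPA/9d (2.60 ± 0.0512, adjusted p = 8.72e-11).

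Fmod, fibromodulin, another keratan sulfate proteoglycan that binds collagen, had the fewest reads of the 10 genes in the GL261 and LLC groups, and so the least precise values. It had 224 and 186 normalized reads in the GL261(B6) CPA/6d pools, against 69.8 and 45.1 in untreated pools (1.84 ± 0.214, adjusted p = 8.56e-06). In B16F10 tumors it had 71.1 and 88.5 after CPA/6d, against 27.6 and 13 untreated (2.01 ± 0.381, adjusted p = 0.00338). Although the pools were apart, the B16F10 call was lost when either CPA/6d pool was left out (adjusted p = 0.00586 and 0.0135), and the GL261(B6) call when all libraries of the B6 hosts were fitted together (adjusted p = 0.00293, limma). In LLC tumors only 8 reads in the CPA/6d pools and 3 in the untreated pools were seen, a ratio of 2.75 with an exact 95% counting interval of 0.661 to 16.1 that holds no change. GL261(scid) tumors had 43.8 and 44.9 untreated, 395 and 336 on CPA/6d (3.01 ± 0.124, adjusted p = 1.77e-08) and 747 and 701 on CPA/9d (4.00 ± 0.103, adjusted p = 3.19e-10).

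Thbs1 encodes thrombospondin 1, an inhibitor of angiogenesis and activator of latent TGF-β that platelets and many other cells secrete. Its log2 fold change was 0.99 to 1.16 in every response. It had 3972 and 3265 normalized reads in the GL261(B6) CPA/6d pools, against 1513 and 2135 in untreated pools (1.00 ± 0.132, adjusted p = 2.57e-05), and 4767 and 4055 in the LLC CPA/6d pools, against 2117 and 1819 in untreated pools (1.16 ± 0.0888, adjusted p = 2.45e-05). In B16F10 tumors it had 2288 and 2072 after CPA/6d, against 1100 and 949 untreated (1.09 ± 0.108, adjusted p = 0.000131). These changes sit near the 2-fold limit, and the GL261(B6) call was lost without the untreated (0.75) or CPA/6d (0.86) pool with more reads, and the B16F10 call without the untreated pool with fewer reads (0.98). In GL261(scid) tumors it had 1556 and 1615 untreated, 3395 and 3242 on CPA/6d (1.06 ± 0.046, adjusted p = 2.37e-08) and 2767 and 3592 on CPA/9d (0.99 ± 0.0976, adjusted p = 4.79e-06, under the fold limit).

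Thbs2 encodes thrombospondin 2, a fibroblast product that limits angiogenesis and collagen fibril growth. It rose in every model, with 7285 and 8022 normalized reads in the GL261(B6) CPA/6d pools, against 1838 and 2525 in untreated pools (1.83 ± 0.114, adjusted p = 3.34e-08). LLC tumors had 5957 and 5245 after CPA/6d, against 2318 and 2162 untreated (1.32 ± 0.0716, adjusted p = 3.50e-06). B16F10 tumors had 726 and 643 after CPA/6d, against 256 and 199 untreated (1.59 ± 0.151, adjusted p = 0.000106). Treated and untreated pools were apart in all 3, as for 85.7% (GL261(B6)), 66% (LLC) and 74.5% (B16F10) of all genes tested. No left-out pool or other setting ended these calls. GL261(scid) tumors had 5792 and 6490 untreated, 18454 and 18715 on CPA/6d (1.60 ± 0.0561, adjusted p = 6.70e-09) and 18042 and 16572 on CPA/9d (1.50 ± 0.0675, adjusted p = 1.24e-08).

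Sparc, osteonectin, is a collagen-binding matricellular protein made by stromal and by some tumor cells. It had 21101 and 21217 normalized reads in the GL261(B6) CPA/6d pools, against 9990 and 10638 in untreated pools (1.04 ± 0.0616, adjusted p = 2.08e-08), and 19018 and 21493 in the B16F10 CPA/6d pools, against 9453 and 9262 in untreated pools (1.11 ± 0.103, adjusted p = 9.68e-05). These models had nearly the same levels both treated and untreated. In LLC tumors the order was turned round, with 2587 and 2618 after CPA/6d, against 4284 and 3702 untreated (-0.61 ± 0.0716, adjusted p = 0.000292), all treated pools under all untreated ones, at a size below the 2-fold limit. The GL261(B6) call was lost without the untreated pool with more reads (0.99). In scid hosts the GL261 pools had 15710 and 16946 untreated, 64991 and 55425 on CPA/6d (1.88 ± 0.0749, adjusted p = 1.47e-08) and 64606 and 71405 on CPA/9d (2.06 ± 0.0714, adjusted p = 2.12e-09).

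Postn encodes periostin, an integrin-binding matricellular protein that activated fibroblasts secrete. It had 20303 and 18896 normalized reads in the GL261(B6) CPA/6d pools, against 4113 and 4606 in untreated pools (2.17 ± 0.0699, adjusted p = 1.06e-10). B16F10 tumors had 673 and 1030 after CPA/6d, against 587 and 563 untreated (0.53 ± 0.178, adjusted p = 0.0388, not called). LLC tumors had 135 and 210 after CPA/6d and 227 and 188 untreated, with overlapping pools (-0.29 ± 0.188, adjusted p = 0.274). Among the B6 hosts only GL261 tumors had a called change in Postn, and that difference in response is tested further on. In GL261(scid) tumors it had 8224 and 10415 untreated, 38633 and 32799 on CPA/6d (1.94 ± 0.105, adjusted p = 1.06e-07) and 37657 and 37273 on CPA/9d (2.02 ± 0.0931, adjusted p = 1.45e-08).

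Fn1 encodes fibronectin, the integrin-bound scaffold on which other matrix proteins assemble. It had 31693 and 31013 normalized reads in the GL261(B6) CPA/6d pools, against 9197 and 9053 in untreated pools (1.78 ± 0.0598, adjusted p = 1.47e-10), and 10340 and 9801 in the B16F10 CPA/6d pools, against 3375 and 3262 in untreated pools (1.60 ± 0.0884, adjusted p = 1.70e-05). LLC tumors had the highest Fn1 of the B6 models both treated and untreated, with 51344 and 46877 after CPA/6d, against 26231 and 23535 untreated (0.98 ± 0.108, adjusted p = 0.000198), pools apart and just under the fold limit. That change passed the limit without the untreated pool with more reads (1.06) or without the CPA/6d pool with fewer reads (1.05). Fn1 in GL261(scid) tumors had 11815 and 11670 untreated, 38522 and 38078 on CPA/6d (1.71 ± 0.0444, adjusted p = 1.36e-09) and 38874 and 39328 on CPA/9d (1.74 ± 0.0549, adjusted p = 1.18e-09).

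Vcan encodes versican, the large hyaluronan-binding proteoglycan of provisional matrix. Its largest change of the B6 models was in LLC tumors, with 5807 and 5597 normalized reads after CPA/6d, against 2360 and 2684 untreated (1.18 ± 0.0696, adjusted p = 4.69e-06). GL261(B6) tumors had 2008 and 1966 after CPA/6d, against 1420 and 1566 untreated (0.41 ± 0.0695, adjusted p = 0.000195), pools apart at a small size. B16F10 tumors had 129 and 171 after CPA/6d, against 99.8 and 74.9 untreated (0.77 ± 0.227, adjusted p = 0.0231), not called. CPA/6d raised Vcan just past the fold limit in GL261(scid) tumors, which had 1565 and 1572 untreated, 3181 and 3265 on CPA/6d (1.04 ± 0.0425, adjusted p = 1.73e-08) and 2586 and 2525 on CPA/9d (0.70 ± 0.049, adjusted p = 3.12e-07).

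**Figure D3:**
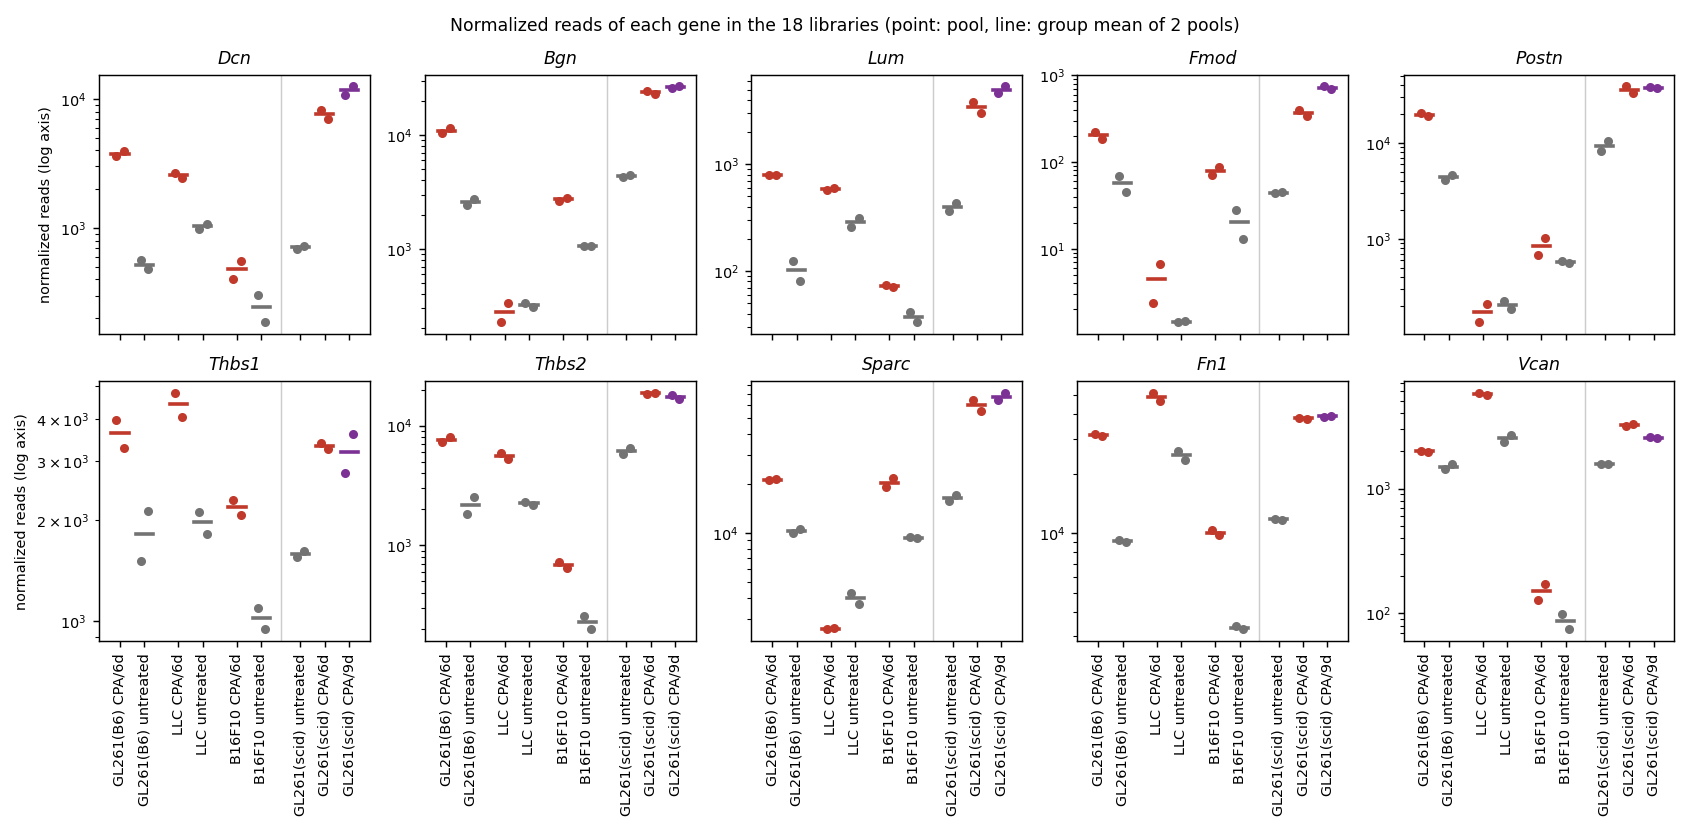
Normalized reads on a log axis (y) of each of the 10 genes in the 9 groups (x), with a point for each of the 18 pools and a line for the group mean, and a vertical line between B6 and scid hosts. Dcn had 3619 and 3944 in the GL261(B6) CPA/6d pools against 562 and 482 in untreated pools, while Sparc in LLC tumors had 2587 and 2618 after CPA/6d, below the 4284 and 3702 of untreated pools.

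Whether the response differed between models was tested with the interaction term of a joint fit of 8 libraries. The response of GL261(B6) tumors exceeded that of LLC tumors for 5 of 10 genes, beside 12.5% of 14073 genes tested, and was below it for 0, beside 5.66%. The 5 were Postn (difference 2.46 ± 0.231 log2 units, adjusted p = 8.07e-06), Bgn (2.33 ± 0.204, adjusted p = 5.08e-06), Lum (1.94 ± 0.242, adjusted p = 6.13e-05), Sparc (1.65 ± 0.102, adjusted p = 4.62e-07) and Dcn (1.55 ± 0.119, adjusted p = 2.05e-06), and the same number was called with every pool left out in turn and with voom. For Vcan the response was the larger in LLC tumors, by a size under the fold limit (-0.77 ± 0.101, adjusted p = 9.27e-05), and for Thbs1 (-0.16 ± 0.213, adjusted p = 0.544) the difference did not pass the test. Fn1 (0.80 ± 0.115, adjusted p = 0.000173) and Thbs2 (0.51 ± 0.175, adjusted p = 0.0295) had smaller differences, and that of Fmod (0.80 ± 0.59) rests on few LLC reads. At an unadjusted p under 0.05 the differences below 0 numbered 1.

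Against B16F10 tumors the response of GL261(B6) tumors was larger for 3 of 10 genes, beside 6.03% of 14257 genes tested, and smaller for 0, beside 4.67% (0 also at an unadjusted p under 0.05 and with voom). These were Lum (difference 2.01 ± 0.312 log2 units, adjusted p = 0.00109), Dcn (1.87 ± 0.309, adjusted p = 0.0016) and Postn (1.64 ± 0.228, adjusted p = 0.000613). Without either GL261(B6) CPA/6d pool the number fell to 1, Postn, with Dcn and Lum losing their calls at differences of 1.81 to 2.02, and Dcn also lost its call without either GL261(B6) untreated pool (1.98 and 1.76). Sparc (-0.074 ± 0.117), Thbs1 (-0.088 ± 0.222) and Thbs2 (0.23 ± 0.224) had differences near 0.

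Between hosts, the CPA/6d response of GL261(B6) tumors was larger than that of GL261(scid) tumors for 0 of 10 genes, beside 1.18% of 14962 genes tested, and smaller for 0, beside 1.08%. At an unadjusted p under 0.05 the numbers were 0 larger and 5 smaller, and voom also called 0 in each direction. Fmod had the largest difference, -1.17 ± 0.276 log2 units (adjusted p = 0.0155), which passed the call without the GL261(B6) untreated pool with fewer reads (-1.47). Next were Sparc (-0.84 ± 0.105, adjusted p = 0.000489), Vcan (-0.63 ± 0.0779, adjusted p = 0.000486) and Dcn (-0.56 ± 0.125, adjusted p = 0.0113), all with the larger response in scid hosts and all under the fold limit.

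**Figure D4:**
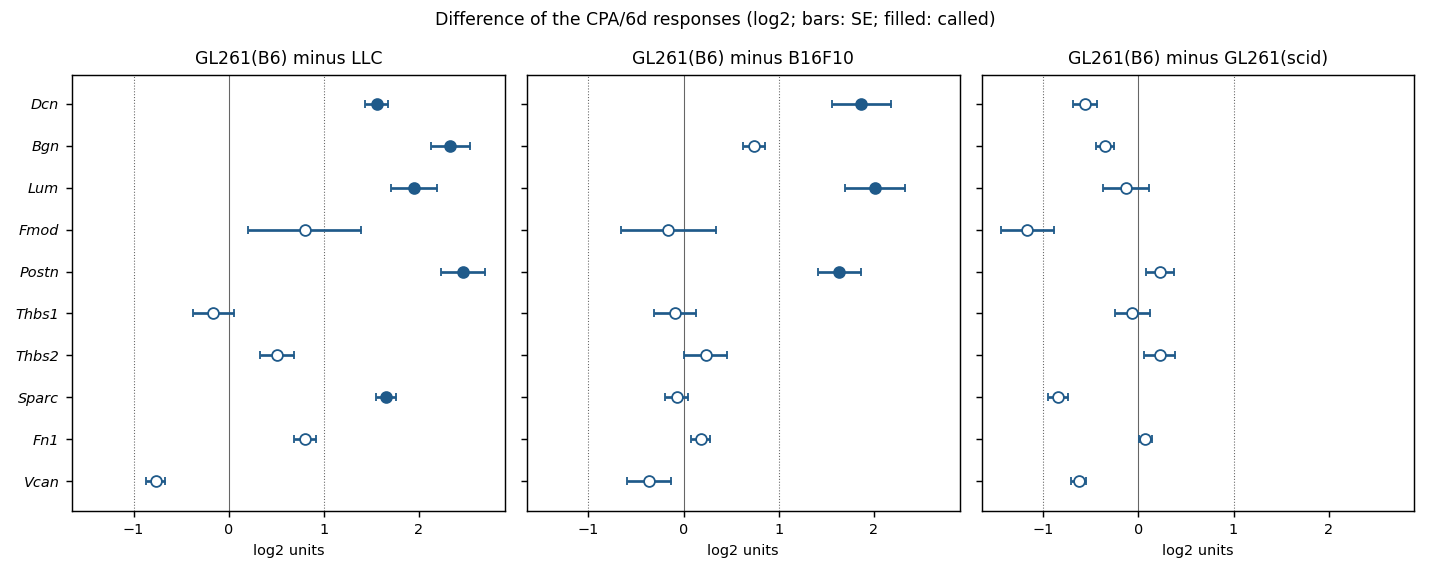
Difference of the CPA/6d response (x axis, log2 units, bars for the SE) of GL261(B6) tumors minus that of LLC, B16F10 and GL261(scid) tumors for the 10 genes (y axis), with filled points for called differences and dotted lines at the 2-fold limit. Bgn (2.33) and Postn (2.46) lie furthest right against LLC tumors, Dcn, Lum and Postn are filled against B16F10 tumors, and no point is filled against GL261(scid) tumors.

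The schedule was compared in GL261(scid) tumors, where CPA/9d over CPA/6d gave 0 of 10 genes higher, beside 0.718% of 14898 genes tested, and 0 lower, beside 0.0201%, with 3 higher and 1 lower at an unadjusted p under 0.05 and 0 in each direction with voom. Fmod stood just under the fold limit (0.99 ± 0.0858, adjusted p = 8.61e-06) and passed it with median-of-ratios scaling (1.002) and without the CPA/6d pool with more reads (1.11) or the CPA/9d pool with fewer reads (1.04). Dcn (0.62 ± 0.09, adjusted p = 0.000814) and Lum (0.54 ± 0.0963, adjusted p = 0.00388) were also higher on CPA/9d in all pools, and Vcan (-0.33 ± 0.0591, adjusted p = 0.00351) was lower. The small leucine-rich proteoglycans Dcn, Lum and Fmod had the largest log2 differences between schedules, and Thbs1 (-0.074), Fn1 (0.03) and Postn (0.074) had some of the smallest. Bgn, the remaining proteoglycan of that family among the 10 genes, did not share this, at 0.15 ± 0.0849 (adjusted p = 0.314). The summed level of 6 skeletal muscle markers, named further on, was 28122 and 28299 on CPA/9d, against 12387 and 14098 on CPA/6d. Of these 6 markers 6 were called higher on CPA/9d. The part of muscle RNA in the differences between schedules cannot be told apart. With 2 injections on either schedule, CPA/9d tumors were also taken longer after the first injection. So the interval between injections and the time on treatment cannot be told apart.

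Before treatment the models differed in which matrix genes they held. Untreated GL261(B6) over LLC tumors had 4 genes called higher, beside 18.3% of 13199 genes tested, and 2 lower, beside 12.9%. Higher were Postn (4359 ± 349 against 207 ± 27.3 normalized reads, SD, n = 2 pools), Bgn (2570 ± 214 against 324 ± 17.9), Sparc (10314 ± 459 against 3993 ± 412) and Fmod, whose 82 reads against 3 give a ratio of 40.9 with an exact 95% counting interval of 13.5 to 202. Lower were Lum (103 ± 31.3 against 288 ± 42.1) and Fn1 (9125 ± 102 against 24883 ± 1906), and without either GL261(B6) untreated pool these calls and that of Sparc were lost, leaving 0 lower. The call of Lum was also lost without either LLC untreated pool (-1.65 and -1.35). Postn was 21-fold and Bgn 7.9-fold higher in GL261(B6) tumors, while Thbs1 (-0.13) and Thbs2 (-0.055) did not pass the test.

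Untreated GL261(B6) over B16F10 tumors had 5 genes called higher, beside 20.3% of 13329 genes tested, and 0 lower, beside 15.6% (9 higher and 0 lower at an unadjusted p under 0.05, 7 and 0 with voom). They were Vcan (1493 ± 103 against 87.4 ± 17.6 normalized reads, SD, n = 2 pools, 17.1-fold), Thbs2 (2182 ± 486 against 227 ± 40.5, 9.51-fold), Postn (4359 ± 349 against 575 ± 17.2, 7.56-fold), Fn1 (1.46 on the log2 scale) and Bgn (1.27). Without either GL261(B6) untreated pool the count was 3, with Vcan and Thbs2 losing their calls. Sparc stood at 0.14, close to equal.

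Untreated B16F10 over LLC tumors had 4 genes called higher, beside 18.5% of 12930 genes tested, and 5 lower, beside 18%. Bgn (1.71 on the log2 scale), Postn (1.47), Sparc (1.23) and Fmod (35 reads against 3, a ratio of 15 with an exact 95% counting interval of 4.72 to 76) were higher in B16F10 tumors. Lower were Vcan (-4.85), Thbs2 (-3.31), Lum (-2.92), Fn1 (-2.90) and Dcn (-2.12). Bgn, Postn and Sparc, with no called rise after CPA in LLC tumors, were each lower in untreated LLC tumors than in either other model of the B6 hosts, in comparisons that share the untreated LLC pools with the LLC response. Without either B16F10 untreated pool Postn and Sparc lost their calls (2 higher). Without either LLC untreated pool Dcn and Fmod lost theirs, and Lum too without the one with fewer reads (3 lower).

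**Figure D5:**
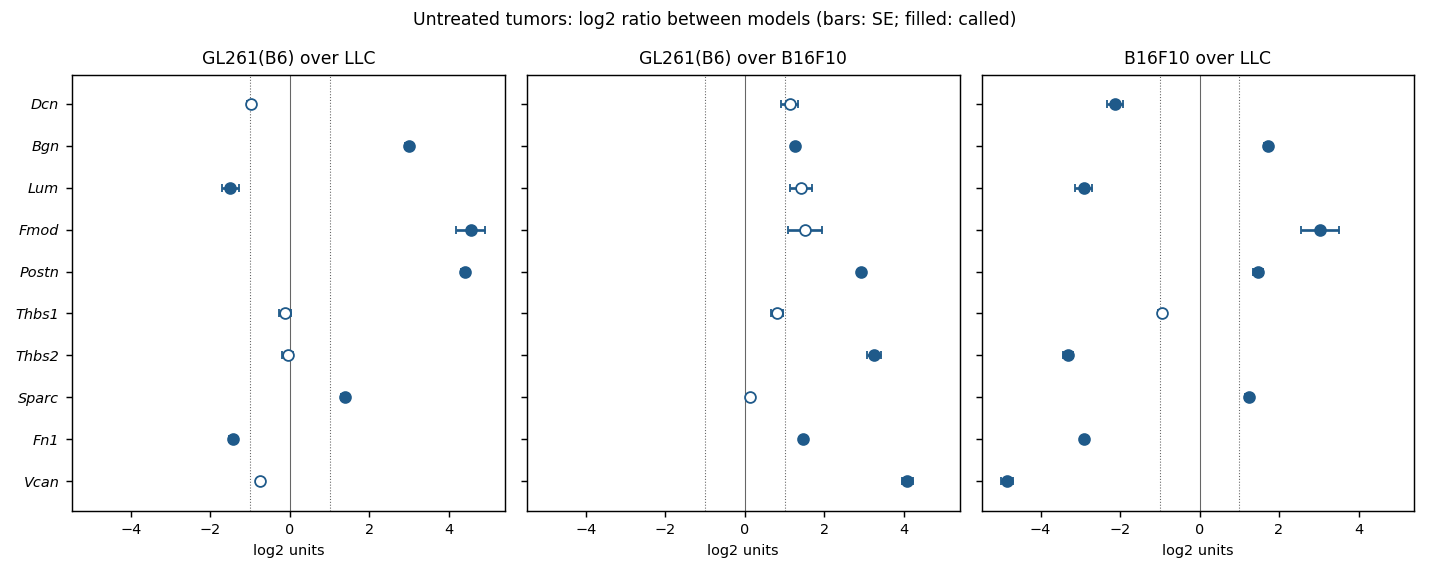
Log2 ratio between untreated tumors (x axis, bars for the SE) of GL261(B6) over LLC, GL261(B6) over B16F10 and B16F10 over LLC for the 10 genes (y axis), with filled points for called genes and dotted lines at the 2-fold limit. Bgn and Postn lie right of 0 in all 3 panels, and Vcan ranges from 4.09 in GL261(B6) over B16F10 tumors down to -4.85 in B16F10 over LLC tumors.

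Ordered by group mean among the B6 hosts, the CPA/6d group of GL261(B6) was the highest for Dcn, Bgn, Lum, Fmod, Postn, Thbs2 and Sparc, and the CPA/6d group of LLC for Thbs1, Fn1 and Vcan. Untreated B16F10 was the lowest group for Dcn, Lum, Thbs1, Thbs2, Fn1 and Vcan, and an LLC group for Bgn, Fmod, Postn and Sparc. Neighbors in these orders whose pools overlapped were GL261(B6) untreated and B16F10 CPA/6d for Dcn, B16F10 CPA/6d and GL261(B6) untreated for Bgn, the 2 LLC groups for Bgn and for Postn, LLC untreated and GL261(B6) untreated for Thbs1 and for Thbs2, B16F10 CPA/6d and LLC untreated for Thbs1, and GL261(B6) CPA/6d and B16F10 CPA/6d for Sparc. Among the scid hosts the 2 CPA schedules overlapped for Postn, Thbs1 and Sparc, and untreated was the lowest group for all 10 genes.

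Per kilobase of exon, Sparc had the highest level of the 10 genes in every group but those of LLC. It reached 9200 normalized reads per kb in GL261(B6) CPA/6d tumors, against 4484 untreated, followed after CPA by Postn (5954) and Bgn (4604). In LLC tumors Fn1 led with 5886 after CPA/6d, against 2982 untreated. There Sparc, in the next place in untreated tumors (1736), stood behind Dcn after CPA/6d (1131 for Sparc and 1321 for Dcn). In B16F10 tumors Sparc had 8807 after CPA/6d, against 4069 untreated, and the next gene after CPA, Fn1, had 1207.

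The matrix genes related to these 10 were counted in lists, each with the median log2 fold change of its genes tested. In GL261(B6) tumors, where 17.6% of all genes tested were called higher and 6.49% lower with a median of -0.024, the other small leucine-rich proteoglycans had 7 of 8 genes called higher and 0 lower (median 1.97, with Ogn 2.71 and Podn 2.21). Other matricellular and adhesive glycoproteins had 9 of 13 higher (median 1.87, with Ecm1 2.44 and Tgfbi 2.40). Elastic fiber and fibulin genes had 8 of 14 higher (median 1.34, with Fbln7 2.91 and Fbln2 2.47) and 1 lower (Fbn2 -1.44), and other thrombospondin and SPARC family genes 5 of 8 higher (median 1.60, with Thbs4 2.30 and Smoc2 2.02) and 1 lower (Smoc1 -1.40). The list of hyaluronan and hyalectan genes, the binding partners and relatives of Vcan, was mixed. It had 1 of 9 higher (the hyaluronan receptor Cd44, 1.07), 2 lower (Bcan -2.51 and Hapln1 -2.80) and a median of -0.14. Of the cell surface receptors 9 of 16 were higher, among them the thrombospondin receptor Cd36 (3.56) and the biglycan receptor Tlr2 (2.52). The glycosaminoglycan chain enzymes, with 4 of 18 higher (the dermatan sulfate epimerase Dse, 2.02), 1 lower (Chst3 -1.38) and a median of 0.45, were called at shares near those of all genes.

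In LLC tumors, where 2.01% of all genes tested were called higher and 0.954% lower with a median of -0.012, 0 of 6 other small leucine-rich proteoglycans were called (median 0.14), 4 of 12 matricellular genes were higher (median 0.90, with Tnn 2.38 and Tnxb 2.22) and 3 of 11 elastic fiber genes were higher (median 0.33, with Fbln1 1.93 and Fbln7 1.90). Of the thrombospondin and SPARC family 1 of 6 was higher (Spock2 1.58, median 0.58), and 0 of 5 hyaluronan genes (median 0.45) and 0 of 16 chain enzymes (median -0.08) were called. Of the 13 receptors (median 0.027) 1 was lower, Cd36 (-1.53), which was higher in GL261(B6) tumors. Whether a list responded differently in the 2 models was not tested.

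In B16F10 tumors, where 6.5% of all genes tested were called higher and 2.83% lower with a median of 0.027, 5 of 12 matricellular genes were higher (median 1.23, with Ecm1 2.72 and Spp1 2.70) and 1 lower (Cyr61 -1.04). Of the elastic fiber genes 4 of 13 were higher (median 0.95, with Efemp1 2.19 and Emilin2 1.66). The other lists had 1 of 6 small leucine-rich proteoglycans higher (Prelp 1.60, median 0.49), 1 of 7 thrombospondin and SPARC family genes (Sparcl1 1.77, median 0.064), 1 of 6 hyaluronan genes (Hapln1 1.67, median 0.87), 1 of 13 receptors (Sdc4 1.05, median 0.51) and 2 of 17 chain enzymes (Chst11 1.25 and Chpf2 1.16, median 0.39).

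GL261(scid) tumors on CPA/6d, where 18.9% of all genes tested were called higher and 8.14% lower with a median of -0.0090, had 7 of 9 small leucine-rich proteoglycans higher (median 2.33, with Ogn 3.75 and Kera 3.48), 10 of 13 matricellular genes (median 1.68, with Nov 2.91 and Mgp 2.88) and 11 of 14 elastic fiber genes (median 1.82, with Efemp1 3.99 and Fbln1 3.15). The thrombospondin and SPARC family had 5 of 10 higher (median 1.96, with Smoc2 2.90 and Fstl1 2.14) and 1 lower (Smoc1 -1.35), and the receptors 8 of 16 higher (median 1.04, with Cd36 2.53 and Tlr2 2.46) and 1 lower (Itga4 -1.24). The hyaluronan genes had 1 of 11 higher (Tnfaip6 1.11) and 1 lower (Bcan -2.23) with a median of 0.14, and the chain enzymes 5 of 18 higher (largest for Dse, 1.95) and 1 lower (Chst3 -1.08) with a median of 0.56. CPA/9d over CPA/6d, with 0.718% of all genes called higher, called 1 small leucine-rich proteoglycan higher (Kera 1.42) and 1 thrombospondin (Thbs4 1.10).

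Markers of cells that can make or hold these matrix proteins were counted beside them, and their part in the results was not tested. The shares of all genes called higher, against which the marker counts stand, were 17.6% in GL261(B6), 2.01% in LLC, 6.5% in B16F10 and 18.9% in GL261(scid) tumors on CPA/6d. The shares called lower were 6.49%, 0.954%, 2.83% and 8.14% in the same order. Of 8 fibroblast markers (Col1a1, Col1a2, Col3a1, Pdgfra, Dpt, Fap, Lox, Pi16), none of them at 0 in any group, 7 were called higher in GL261(B6) tumors (summed level 123456 to 129727 normalized reads after CPA/6d, against 40102 to 45575 untreated), 2 in LLC tumors (32707 to 35110 against 21689 to 22937), 1 in B16F10 tumors (18484 to 21041 against 13117 to 13345) and 7 in GL261(scid) tumors on CPA/6d (360475 to 440615 against 89562 to 104283). The fibroblast marker not called in GL261(B6) tumors was Pdgfra, with a mean of 951 normalized reads after CPA/6d, against 1493 untreated (-0.65 on the log2 scale, adjusted p = 7.11e-05, under the fold limit). Of 7 macrophage markers (Csf1r, Emr1, C1qa, C1qb, C1qc, Cd68, Mrc1), also all above 0, 7 were higher in GL261(B6) (38273 to 41615 against 6219 to 6586), in B16F10 (4794 to 5814 against 1689 to 2069) and in GL261(scid) tumors on CPA/6d (31154 to 32861 against 4140 to 4454), while in LLC tumors 0 were higher and 1 lower (5242 to 6102 against 6380 to 8198). Of 7 endothelial markers 6 were lower in LLC tumors (951 to 1034 against 2249 to 2635), 0 were called in GL261(B6) (2000 to 2213 against 1521 to 1521) or B16F10 tumors, and 5 were higher in GL261(scid) tumors on CPA/6d (2839 to 3267 against 1195 to 1252). Of 7 pericyte and smooth muscle markers 3 were lower in LLC tumors. Called higher were 1 in GL261(B6), 1 in B16F10 and 5 in GL261(scid) tumors on CPA/6d. Of the 4 glial markers all 4 were lower in GL261(B6) tumors (5440 to 5803 against 16461 to 16486). Summed markers of platelets, which secrete Thbs1, were 413 to 456 in GL261(B6) tumors after CPA/6d, against 104 to 115 untreated, and 774 to 828 in LLC tumors after CPA/6d, against 434 to 482 untreated. In B16F10 tumors, where Thbs1 was called higher, the sum was 141 to 145 after CPA/6d, against 117 to 125 untreated. GL261(scid) tumors had 322 to 359 on CPA/6d, against 104 to 111 untreated. Of the 5 platelet markers, 1 of 2 tested was called higher in GL261(B6), 1 of 3 in LLC, 0 of 3 in B16F10 and 2 of 3 in GL261(scid) tumors on CPA/6d.

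Markers of skeletal muscle and adipocytes were also read unevenly between pools, and where that RNA came from was not tested. The summed level of 6 skeletal muscle markers (Acta1, Ckm, Myh4, Mylpf, Tnnt3, Pvalb) was 7962 and 770 normalized reads in the GL261(B6) CPA/6d pools, against 362 and 807 in untreated pools, and 149 and 13581 in the B16F10 CPA/6d pools, against 4797 and 3648 in untreated pools. In LLC tumors it was 433 and 2854 after CPA/6d, against 156 and 473 untreated. The GL261(B6) CPA/6d pool with fewer reads held a muscle sum (770) between those of the untreated pools (362 and 807). It was also the treated pool with the higher sum of adipocyte markers (646 against 243). The part of such RNA in the responses of the B6 hosts was not tested. In GL261(scid) tumors the muscle sum was 265 and 1669 untreated, 12387 and 14098 on CPA/6d and 28122 and 28299 on CPA/9d, so that every treated pool was high in muscle RNA and its part in the scid responses cannot be told apart. Summed adipocyte markers (Adipoq, Plin1, Cidec, Lep) were 243 and 646 in the GL261(B6) CPA/6d pools, against 85.6 and 71.5 in untreated pools, and 132 and 34.3 untreated, 778 and 781 on CPA/6d and 1352 and 653 on CPA/9d in GL261(scid) pools.

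Likeness of response was measured as the root mean square difference of the log2 fold changes over the 5 responses to CPA, which for GL261(scid) share the untreated pools, among 11416 genes tested in all 5. Between the 9 members of that set, Fn1 and Thbs2 were the most alike (0.192 log2 units), followed by the neighbors Dcn and Lum (0.267) and by Thbs1 and Vcan (0.326), and Bgn and Postn stood 0.505 apart. Over all genes the nearest to Dcn was Mmp3 (0.301), to Bgn Tmem37 (0.0928), to Lum Ccl8 (0.175) and to Postn Dok3 (0.0816). The nearest to Thbs1 was Tmem176b (0.137), to Thbs2 Fmo5 (0.176), to Sparc Rasgrp2 (0.175), to Fn1 Fam26e (0.203) and to Vcan Tppp3 (0.158). As descriptions these name genes with a like course and nothing more. Fmod, not tested in LLC tumors, was left out.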

How the data were processed

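RNA was sequenced from 18 tumor pools, 2 in each of 9 groups, labelled as separate pools of individual tumors. Per the labels and the methods, the authors aligned the reads to mm9 with TopHat2 2.0.13, counted them over RefSeq genes and ran DESeq. The 10 deposited tables list 23284 genes with group means of counts divided by size factors, a signal comparable only within its table. Their columns of fold changes and p-values from the authors' own comparisons were not used.

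Because each mean is a sum of whole multiples of 2 steps, the whole reads of both pools were solved for 100% of genes with reads in each group. These reads were scaled by TMM (trims of 30% and 5%) to a depth of 10355665 reads. Tested genes had 15 reads or more over the libraries of a comparison and, in 2 or more of them, a level worth 10 reads at median depth. limma 3.58.1 (R 4.3.3) was run with a trended prior on log2(normalized reads + 1), separately on the libraries of each of 12 comparisons, with an interaction term for differences between models. Calls required more than a 2-fold change with p under 0.001 before adjustment, the study's limits, and p-values were adjusted by Benjamini-Hochberg over all genes tested in the comparison. Fold changes on this scale understate the change of genes with few reads. Counting intervals are exact and cover counting error only.

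All 10 genes and the lists of related genes are described, and of the 3 genes found nearest to each in response the first is named. The related genes named are at most the 2 called genes of a list with the largest change in each direction. The 10 genes, the lists and the markers were chosen with earlier results of these data known, and the skeletal muscle and adipocyte lists after the values were seen. 1 gene of the marker lists is not reported here. Alternatives were a pseudocount of 10, no filter, median-of-ratios scaling, TMM within a comparison (chosen after seeing the data), voom weights, an adjusted p under 0.05, a wider fit over all libraries of a host (or all 18) and leaving out each pool. Sequences are from RefSeq (GRCm38.p6). Figures were drawn with matplotlib 3.10.9 in Python 3.11.15.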

Additional observations from a re-analysis of the deposited data

Results flagged for a closer look

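The response to CPA/6d differed between tumor models by the interaction term of the limma fit for 5 of the 10 genes between GL261(B6) and LLC tumors (12.5% of all genes tested were called in that direction). The differences, GL261(B6) minus LLC, were 2.46 log2 units for Postn, 2.33 for Bgn, 1.94 for Lum, 1.65 for Sparc and 1.55 for Dcn. For Bgn, Postn and Sparc the change was positive in GL261(B6) tumors (2.10, 2.17 and 1.04) and below 0 in LLC tumors (-0.23, -0.29 and -0.61), while Dcn and Lum were higher after CPA in both. Those LLC values were not called, and for Bgn and Postn the LLC pools overlapped and the sign turned (0.054 and 0.022) without the CPA/6d pool with more reads. Between GL261(B6) and B16F10 tumors the response differed for 3 genes, by 2.01 log2 units for Lum, 1.87 for Dcn and 1.64 for Postn (6.03% of all genes tested), and without either GL261(B6) CPA/6d pool 1 gene, Postn, kept its call. GL261 tumors received 2 injections and the other models 3. So model, number of injections, time on treatment and the dose in the headings cannot be told apart. With 2 pools a group, no group was large enough for a search for single outlying pools.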

How the results depend on the processing

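No paired analysis was possible because the solved pools cannot be tied to the pool numbers of the labels. Depth limited Fmod in LLC tumors (8 and 3 reads), and with 2 pools a group a pool left out leaves a lone pool assumed to vary like the others. Of the 10 genes, 1 rose on CPA/9d over CPA/6d with median-of-ratios scaling and 1 with TMM within the comparison (Fmod, 1.002 and 1.003), against 0. At an adjusted p under 0.05, 8 were higher in untreated GL261(B6) over B16F10 tumors, against 5. The response of GL261(B6) minus GL261(scid) tumors had 1 gene lower with a pseudocount of 10 and 1 at an adjusted p under 0.05 (Fmod), against 0. Leaving out each pool gave 0 to 1 genes higher for the schedules, 0 to 2 lower in GL261(B6) over LLC, 3 to 6 higher in GL261(B6) over B16F10, 2 to 3 higher and 3 to 5 lower in B16F10 over LLC, 1 to 3 for GL261(B6) minus B16F10, 0 to 1 lower for GL261(B6) minus GL261(scid), and for the responses 7 to 9 in GL261(B6), 5 to 7 in B16F10 and 8 to 9 in GL261(scid) on CPA/9d.

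Signs turned only for values not called. With a pool left out, log2 fold changes ranged from -0.52 to 0.054 for Bgn and -0.61 to 0.022 for Postn in LLC tumors, from -0.044 to 0.19 for Postn and -0.26 to 0.11 for Thbs1 between schedules, and from -0.38 to 0.12 for Thbs1 and -0.28 to 0.17 for Thbs2 in untreated GL261(B6) over LLC. Differences of response ranged from -0.41 to 0.087 for Thbs1 against LLC, from -0.68 to 0.36 for Fmod, -0.34 to 0.16 for Thbs1 and -0.16 to 0.014 for Sparc against B16F10, and from -0.44 to 0.18 for Lum, -0.31 to 0.19 for Thbs1 and -0.0020 to 0.46 for Thbs2 against GL261(scid). Against B16F10, Fmod had 0.088 with a pseudocount of 10 and Sparc 0.0048 with TMM within the comparison. The cause of these turns was not tested.

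Counts over all genes moved by over 1.5 times at an adjusted p under 0.05 to 426 higher and 190 lower in LLC (253 and 120 before), 1231 higher in B16F10 (813), 1518 and 1032 for GL261(B6) minus B16F10 (859 and 666) and 276 and 269 for GL261(B6) minus GL261(scid) (176 and 162). The wider fit gave 24 higher for the schedules (107) and 104 for GL261(B6) minus GL261(scid), and a pseudocount of 10 gave 1337 for GL261(B6) minus B16F10. Without a pool, untreated tumors gave as few as 742 higher and 713 lower for GL261(B6) over LLC (2409 and 1699), 545 and 792 for GL261(B6) over B16F10 (2707 and 2078) and 1222 and 923 for B16F10 over LLC (2389 and 2326), GL261(B6) minus B16F10 gave 557 higher, GL261(B6) minus GL261(scid) 91 lower, and the schedules up to 167 higher and 5 to 30 lower (3).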
